A study of Mus musculus with 11 samples.

Results

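The neuron and synapse genes described here are 34 named genes, taken by symbol from the 45866 genes measured in every library, and all 34 had a row and passed the filter on low values. They code for proteins that release neurotransmitter, receive it, or give a neuron its shape. In the RefSeq table of GRCm38.p6 they lie on 15 chromosomes, with the most abundant, Snap25, at chr2:136713439-136782428. The RNA came from ribosomes tagged in endothelial cells, the cells that line blood vessels, while the 34 genes are best known from neurons. The level of each gene is given in FPKM, a count of fragments divided by transcript length and library size, which allows genes of different length to be set side by side.

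The mice were adult C57BL/6 mice, wild type or Eltd1-/-. Eltd1, now named Adgrl4, codes for a receptor of the adhesion G protein-coupled family that endothelium expresses. All groups carried a transgene for the ribosomal protein L10a fused to eGFP, driven by the VE-cadherin promoter, and tagged polysomes were captured with anti-GFP beads. The 4 groups were GL261 tumour from Eltd1-/- mice (knockout tumour, n = 2), GL261 tumour from wild type mice (wild type tumour, n = 3), healthy brain from wild type mice (wild type brain, n = 3) and healthy brain from Eltd1-/- mice (knockout brain, n = 3). GL261 is a mouse glioma cell line that was injected into the brain, so the tumours came from 1 line. Each library was a separate mouse sample, and replicate numbers only name the libraries.

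At a synapse, an action potential opens calcium channels, synaptotagmin senses the calcium, and the SNARE proteins of vesicle and membrane zip together and fuse the vesicle. The transmitter then opens glutamate or GABA receptors that scaffold proteins hold in place across the cleft. Neurofilaments and microtubule-binding proteins support the axons and dendrites that carry the signal.

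The FPKM sum of a library lay between 477911 and 641665, and 8978 to 15434 genes were above 0. Wild type tumour 2 stood apart, with 19.1% of the 8520 genes that reached 1 FPKM in all other libraries listed at 0, against 0.0146% to 3.37% in the other libraries. A 0 in that library can therefore be a failed estimate. Adgrl4 stood at 5.82 and 11.5 FPKM in the knockout tumours and between 27.4 and 192 FPKM in the wild type tumours. In brain it ranged from 21.6 to 23.6 FPKM in knockout and from 82.7 to 166 FPKM in wild type. All 15 endothelial markers were above 0 in all 11 libraries, among them Cdh5, which codes for VE-cadherin, at 25.8 to 56.4 FPKM in brain and 4.28 to 20.2 FPKM in tumour. The 15 markers summed to between 2034 and 2848 FPKM in brain and between 431 and 936 FPKM in tumour.

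Of the 34 genes, 20 to 22 were among the 1000 genes of highest FPKM in each brain library, and the 34 took up a smaller part of every tumour library. Together they made up 1.76%, 1.75% and 1.72% of the FPKM sum in the wild type brains and 1.78%, 1.65% and 1.92% in the knockout brains. In the knockout tumours the share was 0.227% and 0.457%. In wild type tumours 1, 2 and 3 it was 0.0977%, 0.128% and 1.14%. Every tumour library lay below every brain library, and wild type tumour 3 lay closest to brain. The libraries hold RNA captured with tagged ribosomes. Fewer cells of a type, less RNA per cell and less RNA carried over from untagged cells cannot be told apart in them.

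**Figure D1:**
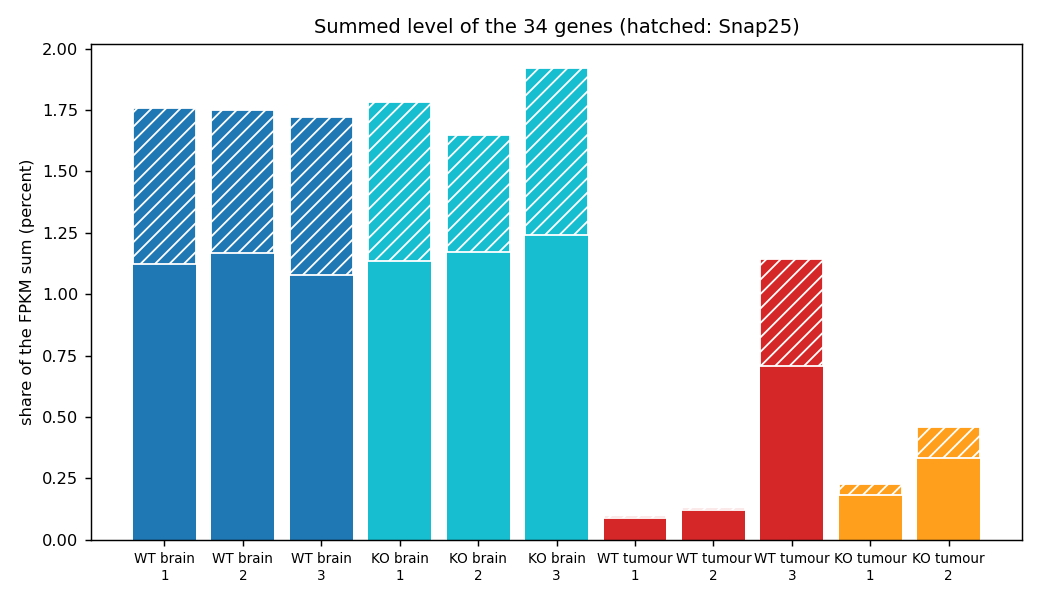
Bars show the summed FPKM of the 34 genes as a percent of the FPKM sum of each library, starting at 0, with the hatched part for Snap25. The 6 brain libraries lie between 1.65% and 1.92%, 4 tumour libraries lie below 0.5%, and wild type tumour 3 lies at 1.14%.

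Set against the 15 endothelial markers, the summed level of the 34 genes was 5.02, 4.93 and 3.93 times as high in the wild type brains and 3.58, 3.41 and 4.79 times as high in the knockout brains. The ratio was 1.52 and 2.71 in the knockout tumours and 0.887 and 0.876 in wild type tumours 1 and 2. In wild type tumour 3 it was 12.7, above all brain libraries. That library held both the highest sum of the 34 genes and the lowest endothelial sum among the tumours.

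In brain, the genes of vesicle fusion summed to the highest level of all roles. Snap25, a SNARE protein of the presynaptic membrane, stood at 3814, 3330 and 3425 FPKM in the wild type brains and at 3701, 2457 and 3542 FPKM in the knockout brains. It stood at 252 and 631 FPKM in the knockout tumours and at 54.3, 52.2 and 2083 FPKM in wild type tumours 1, 2 and 3. All 5 tumours lay below all 6 brains, and wild type tumour 3 stood far above the other tumours. By FPKM, Snap25 ranked between 6 and 9 among all genes in the brain libraries, 11 in wild type tumour 3, 57 and 269 in the knockout tumours, and 1828 and 2588 in wild type tumours 1 and 2. It exceeded the highest endothelial marker in 9 of 11 libraries, the exceptions being wild type tumours 1 and 2.

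Vamp2, the SNARE protein on the vesicle, stood at 215, 214 and 171 FPKM in the wild type brains and at 188, 231 and 188 FPKM in the knockout brains. Its levels were 26.2 and 35.7 FPKM in the knockout tumours and 9.26, 23.0 and 58.8 FPKM in wild type tumours 1, 2 and 3. The groups did not overlap, and the knockout tumours lay within the range of the wild type tumours. Syt1, the calcium sensor of fast release, stood at 464, 419 and 361 FPKM in the wild type brains and 532, 413 and 382 FPKM in the knockout brains. In tumour it stood at 35.8 and 89.3 FPKM in knockout and at 11.8, 51.6 and 142 FPKM in wild type. Here too the highest tumour, wild type tumour 3, lay below the lowest brain.

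Rab3a, the small GTPase that brings vesicles to the membrane, was steady in brain, at 908, 843 and 885 FPKM in wild type and 846, 711 and 912 FPKM in knockout. It stood at 60.0 and 154 FPKM in the knockout tumours and at 49.6, 42.2 and 379 FPKM in the wild type tumours. Cplx2, a complexin that clamps the assembled SNARE proteins, stood at 200, 164 and 153 FPKM in the wild type brains and 185, 179 and 172 FPKM in the knockout brains. Its tumour levels were 21.5 and 34.2 FPKM in knockout and 7.56, 10.8 and 63.9 FPKM in wild type. Both genes had every tumour below every brain. Stx1a, syntaxin of the presynaptic membrane, was lower throughout, at 25.2 to 60.9 FPKM in brain and 5.67 to 19.7 FPKM in tumour. Cplx1, the other complexin, reached 401 FPKM in brain and was listed at 0, 11.2 and 120.2 FPKM in wild type tumours 2, 1 and 3 and at 24.9 and 23.0 FPKM in the knockout tumours.

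Syt4 departed from this pattern. Syt4 codes for a synaptotagmin that lacks the calcium binding of Syt1 and is found on other secretory vesicles as well. It stood at 57.7 and 83.9 FPKM in the knockout tumours and at 57.0, 49.5 and 50.0 FPKM in the wild type tumours. In brain it stood at 58.6, 33.2 and 28.8 FPKM in wild type and at 36.6, 28.1 and 30.5 FPKM in knockout. The knockout tumours lay above the knockout brains without overlap, and the wild type groups overlapped through wild type brain 1.

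Proteins of the vesicle itself are coded by 5 of the 34 genes. Syp, synaptophysin, stood at 925, 455 and 440.3 FPKM in the wild type brains and at 724, 675 and 523 FPKM in the knockout brains. In tumour it was listed at 46.5 and 136 FPKM in knockout and at 4.51, 0 and 177 FPKM in wild type tumours 1, 2 and 3. Sv2a, a vesicle glycoprotein, ranged from 93.2 to 130.3 FPKM in brain, and in the wild type tumours it was listed at 4.53, 0.206 and 52.0 FPKM. Sv2b, Syn1 and Syn2 were listed at 0 in wild type tumour 2. The synapsins Syn1 and Syn2, which tether vesicles to actin, reached 45.4 and 75.05 FPKM in wild type tumour 3, and 54.7 to 87.9 and 91.8 to 143 FPKM in brain. All 5 genes of this group had every tumour below every brain.

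The active zone scaffolds, which mark the site of release, were the lowest of the presynaptic genes in brain. Bsn, bassoon, ranged from 8.62 to 15.2 FPKM in brain and stood at 2.14 and 6.00 FPKM in the knockout tumours and 1.25, 1.05 and 8.79 FPKM in the wild type tumours. Wild type tumour 3 thus lay inside the brain range for Bsn. Pclo, piccolo, ranged from 7.44 to 21.9 FPKM in brain and from 0.470 to 2.51 FPKM in tumour, with no overlap.

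Among postsynaptic genes, Gria2, the AMPA receptor subunit that limits calcium entry, stood at 185, 141 and 150 FPKM in the wild type brains and 165, 127 and 130.1 FPKM in the knockout brains. It stood at 19.7 and 60.2 FPKM in the knockout tumours and at 3.31, 2.51 and 56.2 FPKM in the wild type tumours. No tumour reached a brain library, and knockout tumour 2 was the highest tumour. Gria1, another AMPA receptor subunit, ranged from 121 to 257 FPKM in brain and 0.989 to 104 FPKM in tumour. Grin1, the subunit that every NMDA receptor needs, ranged from 235 to 408 FPKM in brain and 8.13 to 117 FPKM in tumour. The NMDA receptor subunits Grin2a and Grin2b ranged from 29.5 to 67.0 and 42.3 to 103 FPKM in brain, and from 1.19 to 24.1 and 2.49 to 43.9 FPKM in tumour. Grin2b therefore overlapped, Grin2a did not. Gabrb2, a subunit of the GABA-A receptor, ranged from 31.8 to 55.7 FPKM in brain and was listed at 2.15 and 9.37 FPKM in the knockout tumours and 1.55, 0 and 13.7 FPKM in the wild type tumours.

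Dlg4, the scaffold PSD-95, was ordered differently from its receptors. It stood at 55.3 and 80.9 FPKM in the knockout tumours and at 25.8, 146 and 375 FPKM in the wild type tumours. The wild type brains held 215, 584 and 427 FPKM and the knockout brains 388, 502 and 539 FPKM. Wild type tumour 3 lay above the lowest wild type brain, and both knockout tumours lay below wild type tumour 2.

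Camk2a and Camk2b, the alpha and beta subunits of the calcium- and calmodulin-dependent kinase II, and Nrgn, neurogranin, which binds calmodulin, were all above 150 FPKM in every brain library. Camk2a stood at 61.1 and 122 FPKM in the knockout tumours and at 9.35, 12.9 and 190.2 FPKM in the wild type tumours, against 253 to 466 FPKM in brain. Camk2b stood at 39.8 and 77.7 FPKM in the knockout tumours and at 13.4, 4.05 and 238 FPKM in the wild type tumours, against 161 to 294 FPKM in brain. Nrgn was listed at 56.7 and 98.9 FPKM in the knockout tumours and at 9.66, 0 and 274 FPKM in the wild type tumours, against 313 to 541 FPKM in brain. Of these 3 genes, Camk2b overlapped between tumour and brain, and only through wild type tumour 3.

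Gad1 and Gad2, the enzymes that make GABA from glutamate, overlapped through the same library. Gad1 stood at 19.7 and 40.5 FPKM in the knockout tumours and at 11.4, 6.71 and 159 FPKM in the wild type tumours, with 108 to 264 FPKM in brain. Gad2 stood at 11.6 and 16.3 FPKM in the knockout tumours and at 4.66, 2.30 and 49.4 FPKM in the wild type tumours, with 41.9 to 61.3 FPKM in brain.

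The neurofilament subunits differed in level in brain, with Nefl at 84.5 to 115, Nefm at 39.2 to 115 and Nefh at 9.49 to 24.4 FPKM. In tumour they ranged from 2.18 to 65.4, from 0.272 to 40.0 and from 0 to 12.3 FPKM. Stmn2, a stathmin that regulates microtubules in growing axons, ranged from 151 to 187 FPKM in brain and was listed at 15.0 and 25.7 FPKM in the knockout tumours and 5.38, 0 and 115 FPKM in the wild type tumours. Map2, the microtubule-associated protein of dendrites, was the other gene that departed from the rest. It stood at 256 and 112 FPKM in the knockout tumours, 163, 307 and 187 FPKM in the wild type tumours, 316, 194 and 209 FPKM in the wild type brains and 308, 235 and 158 FPKM in the knockout brains. Its tumour and brain levels overlapped almost entirely.

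Rbfox3 codes for NeuN, the splicing regulator used to identify neurons. It stood at 145, 123 and 107 FPKM in the wild type brains and at 114, 98.1 and 124 FPKM in the knockout brains. In tumour it was listed at 5.60 and 17.7 FPKM in knockout and at 1.48, 0 and 27.98 FPKM in wild type. Thy1, a surface glycoprotein of neurons that T cells and some vessels also carry, ranged from 146 to 258 FPKM in brain and from 6.81 to 58.6 FPKM in tumour. For both genes every tumour lay below every brain.

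**Figure D2:**
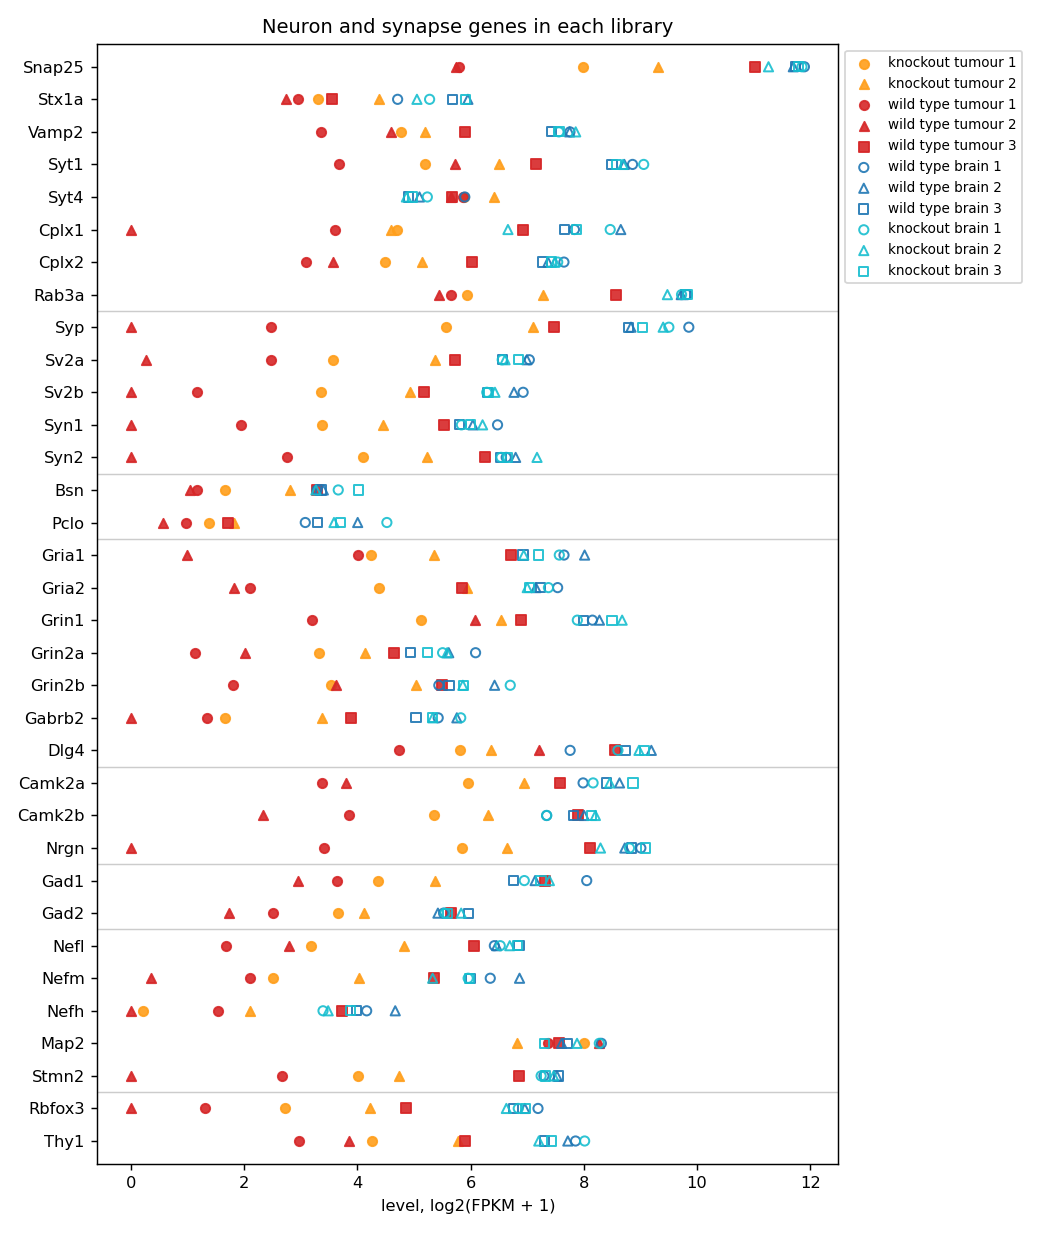
Points show the level of each gene in each of the 11 libraries as log2(FPKM + 1), with genes grouped by role between grey lines. Filled points are tumours and open points brains. For 23 of 34 genes all 5 tumours lie to the left of all 6 brains, as for 12.3% of all genes tested. The tumours of Syt4 lie among or to the right of the brains. Those of Map2 lie among the brains, except knockout tumour 2, which lies to the left of all 6.

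Across the 34 genes the order of the tumour libraries was similar. Wild type tumour 3 was the highest tumour for 29 of 34 genes, and wild type tumour 2 was the lowest for 23 and wild type tumour 1 for 10. Both knockout tumours lay above wild type tumours 1 and 2 for 28 genes, and between the lowest and highest wild type tumour for 29. Knockout tumour 2 was above knockout tumour 1 for 32 genes, the exceptions being Cplx1 and Map2. In wild type tumour 2, 10 of the 34 genes were listed at 0, and a 0 there can be a failed estimate. These orders were not counted over all genes, so they are not shown to be particular to the 34. In brain the spread was small by comparison, with a coefficient of variation over the 6 libraries under 25% for 20 genes and a mean of at least 100 FPKM for 21.

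Ratios between related genes were compared within libraries. Camk2a stood at 1.19 to 1.77 times the level of Camk2b in brain, at 1.54 and 1.57 times in the knockout tumours, and at 0.701, 3.17 and 0.798 times in wild type tumours 1, 2 and 3. Syn1 over Syn2 was 0.510 to 0.898 in brain, 0.579 and 0.571 in the knockout tumours, and 0.494 and 0.605 in wild type tumours 1 and 3. Gad1 over Gad2 was 1.76 to 5.88 in brain and 1.69 to 3.21 in tumour. Gria1 over Gria2 was 0.806 to 1.82 in brain, 0.907 and 0.662 in the knockout tumours, and 4.58, 0.395 and 1.85 in wild type tumours 1, 2 and 3. The remaining pairs were the complexins, the vesicle glycoproteins and the NMDA receptor subunits. Cplx1 over Cplx2 was 0.560 to 2.45 in brain, 0 in wild type tumour 2 and 0.673 to 1.88 in the other tumours. Sv2a over Sv2b was 1.08 to 1.45 in brain, 1.17 and 1.37 in the knockout tumours, and 3.68 and 1.49 in wild type tumours 1 and 3. Grin2a over Grin2b was 0.431 to 1.58 in brain, 0.269 in wild type tumour 2 and 0.479 to 0.858 in the other tumours. Each of the 7 ratios thus left its range in brain in at least 1 tumour. For the complexins and the NMDA receptor subunits that was only wild type tumour 2, the library with many genes listed at 0. Gad1 over Gad2 (1.69 in knockout tumour 1) and Syn1 over Syn2 (0.494 in wild type tumour 1) lay just below their brain ranges. No test was made of these ratios.

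The comparison of tumour with brain in wild type mice asks how the RNA captured with tagged ribosomes differed between glioma and healthy tissue. On log2(FPKM + 1), 25 of the 34 genes fell in tumour and 0 rose at an adjusted p under 0.05, by limma with Benjamini-Hochberg adjustment over all 15605 genes tested. Over all genes tested, 11.7% fell and 7.70% rose. The median difference was −3.21 for the 34 genes and −0.27 for all genes. The ranges of tumour and brain did not overlap, with tumour lower, for 26 of 34 genes, against 19.8% of all genes.

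By role, 7 of 8 genes of vesicle fusion fell, 5 of 5 of the synaptic vesicle, 1 of 2 of the active zone, 5 of 7 postsynaptic receptor and scaffold genes, 2 of 3 of calcium signalling, 0 of 2 of GABA synthesis, 3 of 5 of the cytoskeleton and 2 of 2 of neuronal identity and surface. The largest fitted fall was that of Syp, at −5.84 ± 1.36 (SE, adjusted p = 0.0136), followed by Nrgn at −5.02 ± 1.42 (adjusted p = 0.0302) and Rbfox3 at −4.91 ± 0.95 (adjusted p = 0.0061). All 3 were listed at 0 in wild type tumour 2. Snap25 fell by 4.26 on this scale (SE 1.08, adjusted p = 0.0195), and Gria2 fell by 4.06 (SE 0.86, adjusted p = 0.00924). Vamp2 had the smallest adjusted p of the 34, with a difference of −3.03 ± 0.51 (adjusted p = 0.00308). Thy1 fell by 3.39 (SE 0.65, adjusted p = 0.00597), and Cplx2 fell by 3.20 (SE 0.61, adjusted p = 0.00559).

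The 9 genes that did not pass were Syt4, Bsn, Grin2b, Dlg4, Camk2b, Gad1, Gad2, Nefh and Map2. For 7 of them the difference lay between −3.03 (Camk2b, adjusted p = 0.0622) and −1.51 (Bsn, adjusted p = 0.143). Map2 differed by −0.15 ± 0.40 (adjusted p = 0.827), and Syt4 by 0.43 ± 0.35 (adjusted p = 0.42). At an unadjusted p under 0.05 the count was 32 of 34, all lower, where 34.4% of all genes passed in either direction. The same 8 genes passed under all 24 alternative settings and omissions, namely Stx1a, Vamp2, Syt1, Cplx2, Rab3a, Gria2, Rbfox3 and Thy1. The share of all genes that passed in every alternative was not counted, so this is not shown to be particular to the 34.

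The count moved with single libraries. Without wild type tumour 3, 32 of 34 genes fell, against 16.4% of all genes tested. Without wild type tumour 1 the count was 11, against 6.60% of all genes, and without wild type tumour 2 it was 15, against 8.71%. Without wild type brain 1 it was 13, against 6.56%, and without wild type brain 2 it was 11, against 6.93%. With weights per library, which give a deviating library less influence, 32 fell against 19.0% of all genes. Fitted to the 6 wild type libraries by themselves, 8 fell, against 3.47% of all genes.

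In knockout mice the direction was the same, and fewer genes passed. Of the 34 genes, 4 fell and 0 rose by the same limma fit, where 2.29% of all genes fell and 4.79% rose. These were Vamp2 (−2.68 ± 0.57, SE, adjusted p = 0.0179), Rab3a (−3.07 ± 0.75, adjusted p = 0.0322), Cplx2 (−2.67 ± 0.68, adjusted p = 0.0369) and Syt1 (−2.93 ± 0.76, adjusted p = 0.0408), all genes of vesicle fusion. The median difference over the 34 genes was −2.43, against −0.18 over all genes, and 18 genes reached an unadjusted p under 0.05, as did 24.6% of all genes. Both knockout tumours lay below all 3 knockout brains for 32 genes, a pattern seen for 28.6% of all genes. The exceptions were Syt4, which lay above, and Map2, which overlapped.

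Pclo (−2.35 ± 0.66, adjusted p = 0.0533), Thy1 (−2.53 ± 0.73, adjusted p = 0.0579) and Dlg4 (−2.80 ± 0.84, adjusted p = 0.0655) came next in order of p. Snap25 differed by −2.99 ± 1.21 (adjusted p = 0.155) and Rbfox3 by −3.34 ± 1.06 (adjusted p = 0.0807). Syt4 differed by 1.12 ± 0.40 (adjusted p = 0.11).

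The limma fit pools the spread over all 4 groups. Fitted to the 5 knockout libraries by themselves, 30 of the 34 genes fell and Syt4 rose, and 12.7% of all genes fell. With weights per library 29 fell and Syt4 rose, and 14.5% of all genes fell. Without wild type tumour 3 the count was 22, all lower, against 6.21% of all genes. When any 1 of the 5 knockout libraries was left out, limma called 0 of 34, with 7 to 17 at an unadjusted p under 0.05. Of all genes, 0.110% and 0.376% then fell without knockout tumour 1 and 2, and 0.721%, 0.799% and 0.775% without knockout brain 1, 2 and 3. The shares at an unadjusted p under 0.05 were 12.6%, 18.0%, 20.4%, 20.5% and 20.3% of all genes in the same order. The count was 2 without wild type brain 2 and 1 without wild type brain 3, where 2.07% and 1.56% of all genes fell. It was 7 without wild type tumour 1 and 10 without wild type tumour 2, where 2.74% and 5.93% fell.

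**Figure D3:**
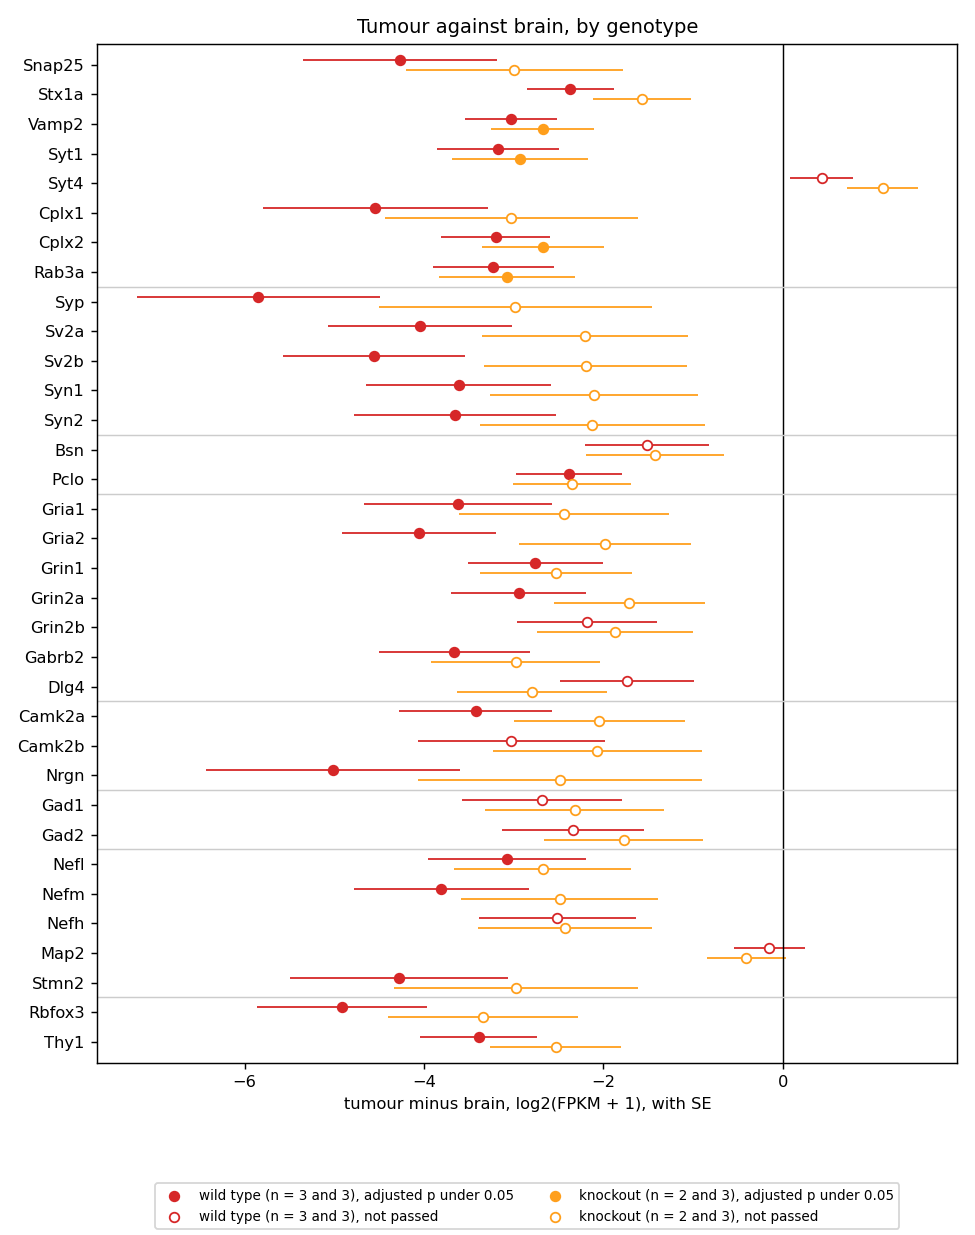
Points show the difference tumour minus brain on log2(FPKM + 1) with its standard error for each of the 34 genes, in wild type (red, n = 3 and 3) and knockout (orange, n = 2 and 3); filled points have an adjusted p under 0.05. Of the differences, 33 of 34 lie below 0 in each genotype and Syt4 lies above 0 in both, with 25 filled points in wild type and 4 in knockout.

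Between genotypes, no gene of the 34 passed the test in either tissue. In tumour, limma gave 0 of 34 at an adjusted p under 0.05 and 0 at an unadjusted p under 0.05, where 0.0192% and 3.11% of all genes passed. The differences, knockout minus wild type, ran from −0.75 (Dlg4) to 3.02 (Syp) with a median of 0.77, and their standard errors reached 1.58 (Nrgn). The median moved with single libraries, to 1.81, 0.24 and 0.44 without wild type tumour 3, 2 and 1, and to 1.41 and 0.28 without knockout tumour 1 and 2. Syp differed by 3.02 ± 1.52 and Gria2 by 1.90 ± 0.96, both with an unadjusted p of 0.071. Only Syt4 had groups without overlap, with knockout higher, where 15.4% of all genes had such groups in either direction. Without wild type tumour 3, Snap25 and Camk2a were higher in knockout tumour at an adjusted p under 0.05, against 0.0777% of all genes. Snap25 then differed by 2.88 ± 0.39 (SE, adjusted p = 0.0396) and Camk2a by 2.87 ± 0.41 (adjusted p = 0.0434), with 24 of 34 genes at an unadjusted p under 0.05, as were 8.70% of all genes. The result for these 2 genes thus rested on whether that library was included.

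In brain, 0 of 34 genes passed by limma, 0 reached an unadjusted p under 0.05, and 0.00641% and 4.34% of all genes did so. The differences ran from −0.69 ± 0.87 (Nefh) to 0.48 ± 0.59 (Pclo), with a median of −0.07. The wild type mean was the higher for 19 genes and the knockout mean for 15. Nefm, at 80.4, 115 and 63.1 FPKM in wild type and 61.1, 39.2 and 62.3 FPKM in knockout, did not overlap. Nor did Nefh, at 16.9, 24.4 and 14.8 FPKM in wild type and 9.49, 10.2 and 13.7 FPKM in knockout. Groups without overlap were found for 8.52% of all genes, so 2 of 34 is near that background. Nefl, the third neurofilament subunit, overlapped.

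The difference between the genotype effects in tumour and brain was tested as an interaction. None of the 34 genes passed by limma, 0 reached an unadjusted p under 0.05, the smallest p was 0.134 (Gria2, 2.07 ± 1.29), and 0.00641% of all genes passed, with 3.17% at an unadjusted p under 0.05. The larger number of calls in wild type than in knockout is therefore not shown to be a difference between genotypes.

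Each tumour library was then set against the wild type brain mean, gene by gene, as a description. The median over the 34 genes was 12.1% and 25.6% of brain in knockout tumours 1 and 2, 4.07% and 3.93% in wild type tumours 1 and 2, and 52.0% in wild type tumour 3. The 91 other neuron and synapse genes had medians of 12.4%, 27.8%, 4.596%, 2.06% and 38.7% in the same order. Both lists thus ranked the 5 libraries in the same order.

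Markers of other cells were not ordered in the same way. The 10 astrocyte markers had medians of 42.2% and 48.5% in the knockout tumours and 23.5%, 37.9% and 57.1% in wild type tumours 1, 2 and 3. The 9 oligodendrocyte markers had medians of 22.0%, 18.8%, 28.6%, 7.44% and 72.0%, with wild type tumour 3 again the highest. The 15 endothelial markers had medians of 58.4%, 42.6%, 33.3%, 37.3% and 19.7%, and there wild type tumour 3 was the lowest. The part that these lists played in the levels of the 34 genes was not tested.

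**Figure D4:**
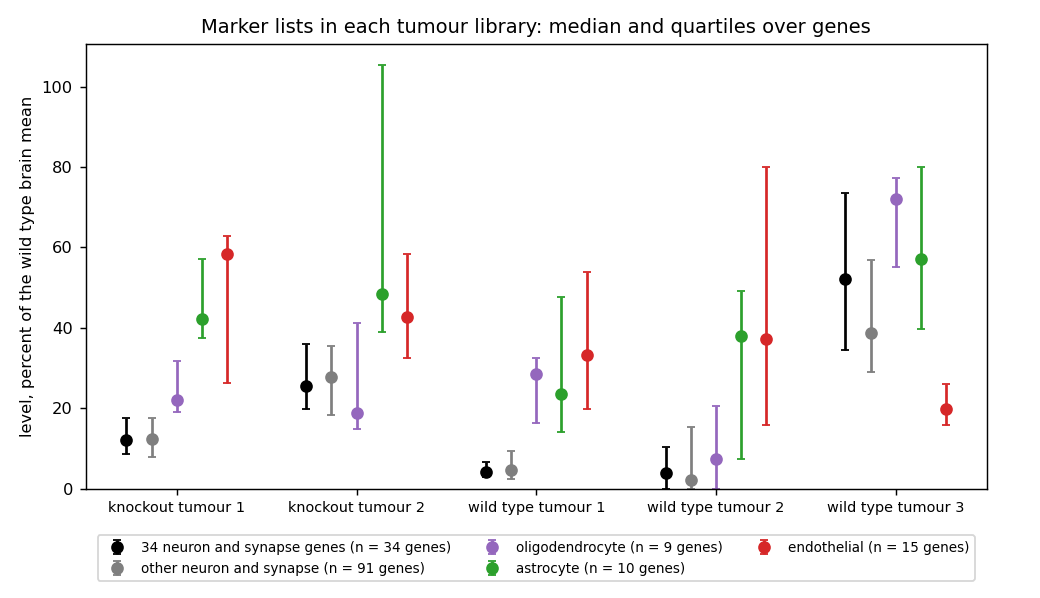
Points show, for each tumour library, the median over the genes of a list of the level as a percent of the wild type brain mean, and bars the lower and upper quartile over genes. Wild type tumour 3 has the highest median of the 34 genes (52.0%) and the lowest of the endothelial markers (19.7%).

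Within wild type tumour 3 the roles differed. The GABA synthesis genes summed to 94.8% of the wild type brain mean, calcium signalling to 69.9%, the cytoskeletal genes to 68.2%, postsynaptic receptors and scaffold to 61.6%, the active zone to 56.4%, vesicle fusion to 52.4%, the synaptic vesicle to 38.6% and neuronal identity and surface to 26.7%. The highest single genes were Syt4 at 125%, Camk2b at 112%, Gad2 at 100.2% and Bsn at 95.8%. The lowest were Pclo at 21.7%, Rbfox3 at 22.3%, Stx1a at 23.7% and Syp at 29.2%. Genes of 1 role could lie at opposite ends, as Bsn and Pclo did.

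**Figure D5:**
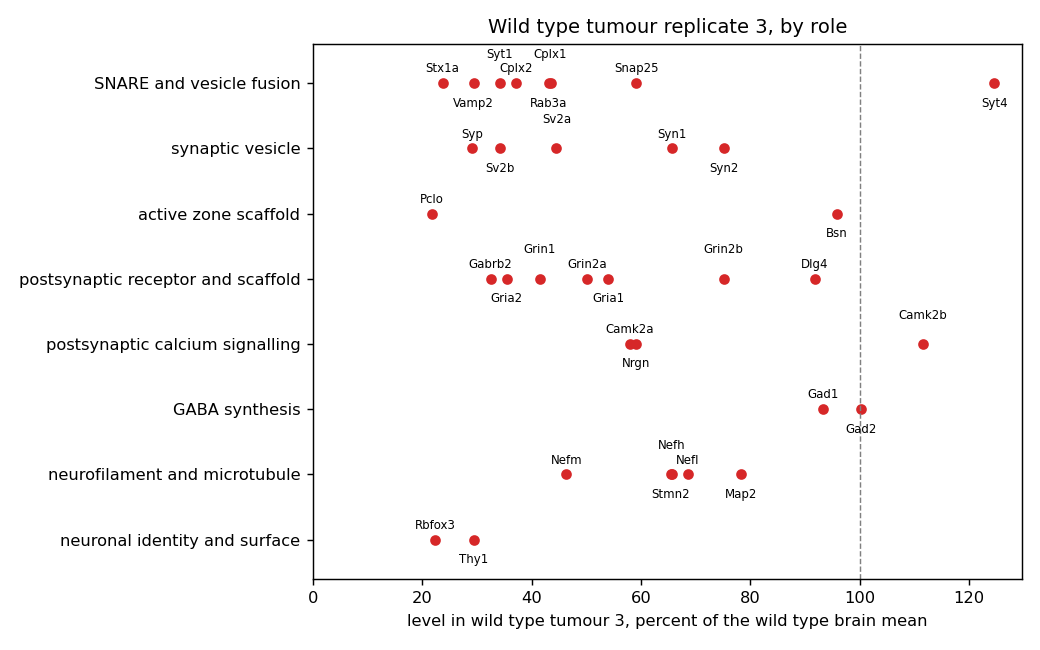
Points show the level of each of the 34 genes in wild type tumour 3 as a percent of the wild type brain mean, on a linear axis, by role, with a dashed line at 100%. Syt4, Camk2b and Gad2 lie at or above the line, and Pclo, Rbfox3 and Stx1a lie below 25%.

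The 91 other neuron and synapse genes, which share no gene with the 34, were all tested. In wild type 72 of 91 fell and 0 rose, with a median difference of −3.16, where 11.7% of all genes fell and 7.70% rose. Among the genes of smallest p were Homer1, a postsynaptic scaffold (−2.46 ± 0.34, SE, adjusted p = 0.000974 by limma), and Basp1, a growth cone protein (−1.92 ± 0.32, adjusted p = 0.00281). In knockout 14 fell and 0 rose, with a median of −2.23, where 2.29% of all genes fell and 4.79% rose. Among the genes of smallest p there were Homer1 (−2.33 ± 0.38, adjusted p = 0.00424) and Slc17a6, a vesicular glutamate transporter (−4.75 ± 0.81, adjusted p = 0.00575). Homer1 stood at 27.0 and 46.3 FPKM in the knockout tumours and at 26.8, 42.3 and 38.9 FPKM in the wild type tumours, against 136 to 238 FPKM in brain. Wild type tumour 3 was therefore inside the range of the other tumours for Homer1.

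Lists of neuron markers were named by neuron type or brain region, and the presence of a region was not tested. Of 8 excitatory neuron genes, Slc17a7, the vesicular glutamate transporter of cortex, ranged from 199 to 257 FPKM in brain and stood at 28.1 and 83.2 FPKM in the knockout tumours and 1.97, 9.04 and 69.6 FPKM in the wild type tumours. Slc17a6 ranged from 28.5 to 55.4 FPKM in brain and from 0 to 6.39 FPKM in tumour. The cortical transcription factor genes were lower in brain, with Cux2 at 14.1 to 36.8, Tbr1 at 6.46 to 32.2, Neurod2 at 6.96 to 23.0, Neurod6 at 6.29 to 14.7 and Fezf2 at 0 to 6.11 FPKM. Each of these 5 was at 0 in at least 1 tumour, and none exceeded 14.3 FPKM there.

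Of 9 inhibitory neuron genes, Slc32a1, the vesicular GABA transporter, ranged from 24.1 to 47.3 FPKM in brain and from 0 to 18.4 FPKM in tumour. Sst, somatostatin, ranged from 32.6 to 102 FPKM in brain and from 0 to 9.57 FPKM in tumour. Pvalb, Npy, Lhx6, Dlx1, Adarb2 and Vip reached at most 37.3 FPKM in brain and 16.5 FPKM in tumour. All 9 were listed at 0 in at least 1 tumour.

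Of 8 striatal genes, Ppp1r1b, which codes for DARPP-32, ranged from 211 to 383 FPKM in brain and was listed at 27.2 and 63.6 FPKM in the knockout tumours and 20.5, 0 and 179 FPKM in the wild type tumours. Penk, proenkephalin, ranged from 131 to 208 FPKM in brain and stood at 27.5 and 67.3 FPKM in the knockout tumours and 10.1, 3.37 and 89.7 FPKM in the wild type tumours. Tac1 reached 42.7, Rgs9 24.8, Drd2 12.5, Drd1 10.7 and Adora2a 9.66 FPKM in brain, and all 5 were at 0 in at least 1 tumour. Of 7 cerebellar genes, Calb1 (24.6 to 64.4 FPKM in brain), Zic1 (5.35 to 34.4) and Cbln1 (1.73 to 14.2) were above 0 in all brains. Gabra6, Cbln3, Pcp2 and Neurod1 were each at 0 in at least 1 brain and reached at most 1.09, 1.17, 6.40 and 4.67 FPKM there.

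In groups of cells, tested with the same fit, 6 of 10 astrocyte markers fell and 1 rose in wild type and 0 of 10 passed in knockout. Aldoc ranged from 356 to 542 FPKM in brain and 117 to 327 FPKM in tumour, and Slc1a2 from 271 to 785 and 3.65 to 149 FPKM. Of 9 oligodendrocyte markers 4 fell in wild type and 3 in knockout, with Cnp at 145 to 287 FPKM in brain and 162 to 314 FPKM in tumour. Of 15 endothelial markers 9 fell in wild type and 4 in knockout, with Cldn5 at 319 to 566 FPKM in brain and 75.4 to 136 FPKM in tumour and Egfl7 at 247 to 409 and 76.0 to 351 FPKM. Over all genes tested, 11.7% fell and 7.70% rose in wild type, and 2.29% fell and 4.79% rose in knockout. The part of these lists in the result was not tested.

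The remaining lists differed in direction. The 8 genes of dividing cells summed to 1.43 to 39.2 FPKM in brain and 594 to 1140 FPKM in tumour, with Top2a at 265 to 522 and Cdk1 at 91.3 to 178 FPKM in tumour, and the lowest tumour sum was that of wild type tumour 3. The 12 microglia and macrophage genes summed to 40.7 to 64.6 FPKM in brain and 136 to 338 FPKM in tumour, again lowest in wild type tumour 3, with C1qa at 22.7 to 134 and C1qb at 20.2 to 43.3 FPKM in tumour. The 8 glioma and neural progenitor genes summed to 200.5 to 446 FPKM in brain and 155 to 310.2 FPKM in tumour, and single genes differed in direction. Prom1 ranged from 125 to 327 FPKM in brain and from 9.70 to 134 FPKM in tumour. Olig2 went the other way, from 1.46 to 7.82 FPKM in brain to 55.9 to 109.7 FPKM in tumour. The 10 mural genes summed to at most 78.9 FPKM (Cspg4, Vtn highest), the 9 lymphocyte genes to at most 33.8 FPKM (Cd4, Lck highest, Cd3e at 0 in all libraries) and the 5 erythrocyte genes to at most 44.2 FPKM (Hba-a2, Hbb-bs highest, Hbb-bt at 0 in all libraries). Wild type tumour 3 thus combined high neuron, astrocyte and oligodendrocyte genes with the lowest tumour levels of endothelial, dividing cell and microglia genes.

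Many neuron genes carry the RE1 element, to which the repressor Rest binds in cells that are not neurons. Rest stood at 3.31 to 7.86 FPKM in brain and at 12.5 to 18.2 FPKM in tumour, without overlap. The difference was 1.45 ± 0.50 in wild type (limma adjusted p = 0.063) and 1.82 ± 0.56 in knockout (adjusted p = 0.0734), so it did not pass. Of 6 genes of the Rest complex, Hdac1, Hdac2 and Rcor2 rose in wild type and Hdac1 in knockout. Among all genes tested, 7.70% rose in wild type and 4.79% in knockout. Hdac1 ranged from 17.7 to 37.0 FPKM in brain and 99.0 to 209 FPKM in tumour, and Hdac2 from 43.7 to 60.0 and 106 to 178 FPKM. No relation between these levels and the 34 genes was tested.

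Promoter windows from RefSeq (GRCm38.p6), each from 250 bases before to 50 bases after an annotated start, were found for 22 of the 34 genes, 32 windows in all. The core of the RE1 element was searched on both strands as AGCACC, any 2 bases, GG, any 1 base and CAG. It was found in 33 of 32851 windows of all genes (0.1005%) and in 3 windows of the 34 genes, those of Gad2, Gria2 and Syn1. The sequences are shown because they are the matches among these genes, 5′ to 3′ on the strand of the gene, with the match in capitals. In Gad2 (within chr2:22622077-22622326, plus strand) and Gria2 (within chr3:80802836-80803085, minus strand) the window lies inside the annotated span of the gene, which has an earlier start, and only the match with 6 bases on each side is given. In Gria2 the match lies on the opposite strand. For Syn1 (chrX:20920919-20921168, minus strand), upstream of the annotated gene, all 250 bases before the start are given.
Gad2: tgtggtAGCACCCTGGACAGcgcgtt
Gria2: aaagcgCTGTCCGCGGTGCTaaaatc
Syn1: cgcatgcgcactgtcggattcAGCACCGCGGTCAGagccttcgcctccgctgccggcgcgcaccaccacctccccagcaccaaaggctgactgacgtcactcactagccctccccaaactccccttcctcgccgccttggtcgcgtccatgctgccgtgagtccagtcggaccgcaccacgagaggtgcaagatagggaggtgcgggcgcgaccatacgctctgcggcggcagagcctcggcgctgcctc

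The matches lie 163 to 150, 170 to 157 and 229 to 216 bases before the start in Gad2, Gria2 and Syn1. The Syn1 window also holds the cAMP response element, TGACGTCA, at 159 to 152 bases before the start, which 588 of 32851 windows (1.79%) share and no other window of the 34 genes. A match is a description of letters, and windows without one say nothing about the factor. In wild type tumour against brain, Gria2 and Syn1 fell (−4.06 ± 0.86, SE, and −3.61 ± 1.03, adjusted p = 0.00924 and 0.0319 by limma) and Gad2 did not pass (−2.34 ± 0.79, adjusted p = 0.0584). A difference between these genes was not tested.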

How the data were processed

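FPKM values, 1 per gene and library, were deposited by the authors, per the file headers; TopHat2 2.1.1, Cufflinks 2.2.1 and GRCm38 are named in the submitters' processing notes. No source used here gives the annotation or the strand setting, so Gad1 and Grin1 may share reads with Gad1os (0 FPKM in all libraries) and Grin1os (at most 7.35 FPKM). RNA of integrity above 7 was used, after ribosomal RNA depletion and with a strand-preserving kit, per the labels' protocols, which name 3 mice a group; 2 knockout tumours were analysed here. Libraries listed 46073 entries; 189 repeated symbols were summed. Low values held no steps of whole reads (at most 4.58% of low genes on 1 ratio in any of 9 library pairs), so depth is unknown and no counting interval is given. Of 13 mitochondrial mRNAs, 4 were at 0 in all libraries.

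Limma 3.58.1 (R 4.3.3) was fitted to log2(FPKM + 1), unscaled, for 15605 genes of at least 1 FPKM in at least 2 libraries, with 4 group means, 7 residual degrees of freedom and a variance trend. Tests were two-sided, adjusted by Benjamini-Hochberg within each of 5 contrasts, threshold 0.05. Fold changes on this scale are understated for low genes. The procedure was run on simulated data with the same spread in all groups for a given gene. It therefore does not show how the unequal spread of tumour and brain affects the calls. Members, lists and alternatives were chosen with earlier results of these data known; all 34 members are named, marker lists by their 2 highest genes, other neuron genes were taken from the 4 of smallest p, of which 2 per contrast are named; values of some list genes are not reported here. Gene names and promoters come from RefSeq tables of GRCm38.p6.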

Additional observations from a re-analysis of the deposited data

How the results depend on the processing

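The count of genes lower in tumour than brain in wild type was 25 of 34; 19 of 24 alternatives kept it within 1.5 times, a fit of the compared groups alone gave 8, and leaving out each library gave 11 to 32. In knockout the count of genes called was 4, all lower. It was 1 with a pseudocount of 0.1, with no filter and with upper quartile scaling, 2 with a common sum and with no variance trend, 8 with quantile normalization, 30 with library weights and 31 with the compared groups alone (Syt4 higher in both, the others lower), and 0 to 22 when each library was left out. Of 15605 genes tested, 188 fell with a pseudocount of 0.1 and 141 with upper quartile scaling, and 296 of 19521 with no filter. With a common sum, no variance trend and quantile normalization, 274, 251 and 668 of 15605 fell, against 357 in the main fit. Leaving out wild type tumours 2 and 3 together was chosen after seeing the data. The median difference of the 34 genes in knockout was then −2.43, as in the main fit. Knockout against wild type tumour gave 0, and 0 to 2 when each library was left out; in brain and for the interaction the count was 0 under all alternatives run. The difference of 32 genes, all but Syt4 and Map2, was negative in both genotypes under all 24 alternatives. Map2 changed sign in wild type with quantile normalization (0.015) and, when each library was left out, ran from −0.42 to 0.068, above 0 without wild type tumour 1 (0.036) or brain 1; in knockout it ran from −0.99 to 0.185, above 0 without tumour 2. The share of the FPKM sum moved to 1.12% in wild type brain and 1.18% in knockout brain without Snap25, and to 1.77% in wild type brain without mitochondrial genes. The causes were not tested, except that fits without a library or group hold fewer samples. Where 1 knockout tumour was left, it was assumed to vary like the other groups. No paired analysis was possible because replicate numbers only name libraries. FPKM without counts gives no depth, so values near 0 have no stated precision.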
